A study of Mus musculus with 3 samples.

Results

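The cells described here carried RNA of Ass1, Nrg1 and F13a1 together and little RNA of the primary granule proteases Elane and Prtn3, and they are called the Ass1/Nrg1 cells below. They were proposed as monocyte progenitors. A kept barcode had at least 500 UMIs, at least 200 genes and at most 20% mitochondrial UMIs, where a UMI is 1 counted RNA molecule. A barcode was a member if it had at least 1 UMI each of Ass1, Nrg1 and F13a1 and under 50 UMIs of Elane and Prtn3 together per 10000 UMIs of the cell. The rule found 1582 members among 37188 kept barcodes, of 39092 in all. Members were thus chosen by the measured UMIs of these 5 genes, whose values are given below as a description only.

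The study took cochleae of C57BL/6J mice 6 h after the last noise exposure and made 1 single-cell 3′ RNA library from 6 mice in each of 3 groups. HHL mice (noise-induced hidden hearing loss) had 110 dB of noise for 2 h. NIHL mice (noise-induced hearing loss) had 115 dB for 4 h on 3 days, and control mice had no noise and were otherwise kept alike. All cells stood in 1 table, in which a numeric suffix of the barcode separates 3 libraries, and no label ties a suffix to a group. The libraries are therefore called library 1, 2 and 3. The HHL, NIHL and control groups were not compared, and no test was possible with 1 library of pooled mice per group. Levels are in CPM, the usual scaling of a gene's share of the UMIs summed over the cells of a population and library. Every interval is a 95% interval and covers counting error alone, not differences between mice or libraries.

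Monocytes arise in bone marrow from granulocyte-monocyte progenitors, which shut down primary granule genes such as Elane and Mpo and switch on Ly6c2, Ccr2 and Fn1 as they commit to the monocyte line. Temporal bone contains marrow, and marrow cells can enter a suspension made from a cochlea. Ass1 encodes argininosuccinate synthase, which joins citrulline and aspartate on the way to arginine, the substrate of nitric oxide synthases and arginases. Nrg1 encodes neuregulin 1, a growth factor that binds ERBB receptors, and F13a1 the catalytic A subunit of coagulation factor XIII, a transglutaminase that crosslinks fibrin. Itga1 encodes the collagen-binding integrin alpha 1, and Tifab a regulator of TRAF6 signalling in blood-forming cells.

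Members numbered 555, 281 and 746 in libraries 1, 2 and 3, of 16883, 9602 and 10703 kept cells. Their median depth was 14012, 17551 and 24138 UMIs per cell, against 5259, 6118 and 7409 UMIs in all other kept cells. Summed over cells, the 3 libraries gave 8660468, 5293707 and 20739734 UMIs, so that levels in library 2 carry the widest intervals. Called doublets made up 12.4%, 11.4% and 10.3% of the members, against 5.63%, 4.69% and 4.73% of kept cells, and they were retained. Between 31 and 53 barcodes were shared by the kept cells of each pair of libraries and none by the members of any pair, while 14 members shared theirs with another kept cell. RNA of other cells was present in the suspensions: the neutrophil gene S100a8 had 10666, 5933 and 8196 CPM in the members and 17015, 7843 and 5359 CPM in T cells, the 179, 215 and 159 cells with a UMI each of Cd3e, Cd3d and Trbc2, which do not make it. Hemoglobin Hbb-bs stood at 272, 6045 and 2133 CPM in members and 1112, 10594 and 1286 CPM in T cells, and neither gene was read as expression.

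The share of kept cells that were members was 3.29% (3.02 to 3.57) in library 1, 2.93% (2.60 to 3.28) in library 2 and 6.97% (6.49 to 7.47) in library 3. The excess of library 3 shrank once depth was equalised. With each cell thinned to 3000 UMIs and 4101, 2042 and 1551 shallower cells left out, 69 of 12782 cells (0.540%, 0.420 to 0.683), 44 of 7560 (0.582%, 0.423 to 0.781) and 65 of 9152 (0.710%, 0.549 to 0.904) met the rule, and these intervals overlap. Member depth at full sequencing was also highest in library 3, and its part in the share was not tested beyond this thinning.

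**Figure D1:**
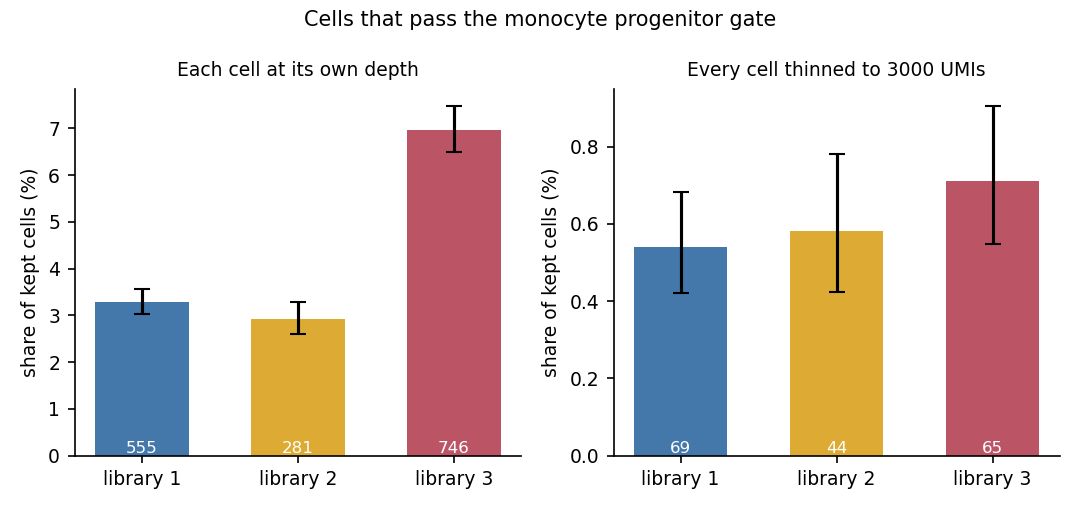
Share of kept cells, in percent, that met the rule in libraries 1, 2 and 3, at each cell's own depth on the left and with every cell thinned to 3000 UMIs on the right; bars start at 0, whiskers are exact 95% intervals and the number in a bar is the number of cells. Library 3 stood at 6.97% at full depth, and the 3 intervals overlap between 0.549% and 0.683% after thinning.

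Many members passed with a single UMI of Ass1 or of Nrg1. Ass1 had a median of 2, 3 and 4 UMIs per member in libraries 1, 2 and 3, and exactly 1 UMI in 49.5%, 29.9% and 17.4% of them. Nrg1 had a median of 2 UMIs in every library, with exactly 1 UMI in 47.6%, 38.1% and 41.8%, whereas F13a1 had a median of 15, 18 and 19 UMIs. Other F13a1 cells under the protease limit lay just outside: 530, 191 and 159 cells had Nrg1 and no Ass1, and 664, 321 and 746 had Ass1 and no Nrg1. At the protease limit, 67, 25 and 88 members stood at 40 to 50 UMIs per 10000, and 56, 15 and 51 cells with all 3 genes at 50 to 60.

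At full depth Ass1 accompanied Nrg1 more often in library 3. Of the cells with Nrg1 and F13a1 under the protease limit, 82.4% (79.8 to 84.9) in library 3 also had Ass1, against 51.2% (48.1 to 54.2) in library 1 and 59.5% (55.0 to 64.0) in library 2. Thinned to 3000 UMIs, the share was 29.8% (23.8 to 36.4) in library 3, against 16.01% (12.7 to 19.8) in library 1 and 24.3% (18.3 to 31.2) in library 2. After thinning, the interval of library 3 lies above that of library 1 and overlaps that of library 2. In the reverse direction, about the same share of Ass1 and F13a1 cells had Nrg1 in all 3 libraries, 45.5, 46.7 and 50% in libraries 1, 2 and 3, and 16.4, 21.1 and 15.5% after thinning.

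A set of 3 populations of the same libraries was used for comparison. Promyelocyte-like cells had at least 50 UMIs of Elane and Prtn3 per 10000 and a UMI of Mpo (1994, 484 and 970 cells). Cd34-positive cells had a UMI of Cd34 and of Mpo under the same protease limit (343, 267 and 448 cells), and monocytes a UMI of Ly6c2, Ccr2 and Fn1 under it and none of Saa3 (2176, 951 and 589 cells). A gene was counted where it was at least 2-fold apart in the same direction in all 3 libraries, and the genes that define a population are not findings about it.

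The monocyte part of the proposed name was checked with genes outside the rule and was borne out, although Tifab and Itga1 were proposed as markers on these same data. Tifab had a UMI in 73.7, 83.6 and 85.1% of the members in libraries 1, 2 and 3, against 3.91, 3.26 and 3.77% of T cells, the population taken to show free RNA, with median depths of 5571, 5173 and 6544 UMIs. Itga1 was found in 86.7, 83.3 and 73.3% of members and 35.2, 29.3 and 23.9% of T cells. Klf4, a transcription factor that directs monocyte differentiation, had a UMI in 93.7, 93.6 and 93.6% of members, against 13.97, 12.6 and 9.43% of T cells. Csf1r, the receptor for the monocyte growth factor M-CSF, was found in 80.0, 85.1 and 84.2% of members and 7.26, 11.2 and 3.14% of T cells. All 4 genes were thus above the T-cell share in every library, though members were also deeper. Tifab and Itga1, as label markers, are not counted toward the name. The 10 classical monocyte markers summed to 6678, 8354 and 7158 CPM in members, against 2478, 2597 and 3076 CPM in T cells.

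The progenitor part of the name was not settled by the genes checked. Kit, the stem cell factor receptor by which mouse monocyte progenitors are usually sorted, had 6.35, 7.37 and 5.79 CPM in members and 7.23, 7.56 and 14.7 CPM in monocytes. Flt3, a receptor of earlier progenitors, had 4.27, 8.12 and 4.63 CPM in members and 9.10, 17.0 and 7.67 CPM in monocytes. Cd34, a surface protein of stem and progenitor cells, stood at 12.4, 9.45 and 8.82 CPM in members and 10.6, 9.40 and 8.96 CPM in monocytes. None of the 3 was higher in the members than in monocytes by 2-fold in any library. Flt3, as a receptor of earlier progenitors, bears little on a later one. Cell cycle genes, described below, were not weighed here. Of the 8 markers of granulocyte-monocyte progenitors or promyelocytes, 4 were at least 2-fold higher than in monocytes in all 3 libraries. That was so for 0.109% of all genes, and Elane and Prtn3, genes of the rule, are among the 4. The count cannot decide the name, since monocytes had to have a UMI of Fn1 and members did not. Within members, Fn1 was lower where the proteases were higher, as described below. The part of this in the count was not tested. Under a stricter protease limit of 20, the median log2 ratio of the primary granule list to monocytes was -0.28 in place of 0.50. As these signs did not settle the name, the cells are called by their genes and not as progenitors. Mpo, the myeloperoxidase of primary granules, was above monocytes in every library, with 575, 266 and 414 CPM in the Ass1/Nrg1 cells and 249, 86.5 and 233 CPM in monocytes.

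Markers of other cell types were read against T cells. The 8 macrophage markers summed to 52.2, 105 and 97.7 CPM in members and 52.9, 340.0 and 48.7 CPM in T cells, and the 9 markers of conventional dendritic cells to 38.8, 43.3 and 51.2 CPM in members and 46.8, 165 and 28.7 CPM in T cells. T or natural killer cell markers summed to 59.2, 75.2 and 45.8 CPM in members, and B cell markers to 660.4, 217 and 191 CPM in members and 217, 191 and 289 CPM in T cells. The 8 mature neutrophil markers gave 22566, 12607 and 15476 CPM in members and 37675, 19794 and 11699 CPM in T cells, and the 7 erythroid markers 434, 8339 and 3027 CPM in members and 1796, 15440.4 and 1984 CPM in T cells. Members were thus below T cells in both lists in libraries 1 and 2 and above them in library 3. Plasmacytoid dendritic cell markers were above the T-cell level in every library, at 196, 153 and 338 CPM in members and 92.0, 101 and 194 CPM in T cells. Most of the members' sum was Bst2, also a type I interferon gene, at 118.5, 87.0 and 288 CPM without its highest member. Siglech had 3.69, 0.756 and 1.45 CPM in members and 0 in T cells. Markers of basophils, mast cells or eosinophils were also above T cells, at 93.6, 179.8 and 21.8 CPM in members and 16.9, 10.8 and 14.3 CPM in T cells. Megakaryocyte markers were above it in libraries 1 and 3, at 4.27, 17.2 and 241 CPM in members and 2.30, 35.5 and 23.7 CPM in T cells. Fibroblast, fibrocyte or bone cell markers had 194, 458 and 104 CPM in members and 163, 349 and 271 CPM in T cells. Ear epithelial markers had 18.1, 3.97 and 3.81 CPM in members and 3.83, 12.1 and 11.2 CPM in T cells. Endothelial markers were likewise above T cells in library 1 alone. Non-classical monocyte markers had 461, 424 and 338 CPM in members and 672, 577 and 460 CPM in T cells. Schwann cell markers were also below T cells in every library. Single members weighed on some of these sums. In library 1, 1 member held 2695 of the 3437 UMIs of the B cell marker Igkc. In library 2, 1 member held 447 of the 469 UMIs of the basophil marker Prss34. In library 3, 1 member held 4165 of the 4622 UMIs of the megakaryocyte marker Pf4. No list had a marker at 0 in the members of all libraries together, and the part of other cell types in the results was not tested.

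The gate genes themselves, given as a description of the rule, differed by less than 2-fold between libraries. Ass1 had 125 CPM (118 to 133), 172 CPM (161 to 184) and 174 CPM (168 to 179.7) in libraries 1, 2 and 3. Nrg1 had 130.5 CPM (123 to 138), 139 CPM (129 to 149) and 86.5 CPM (82.5 to 90.5), and F13a1 1026 CPM (1005 to 1048), 1045 CPM (1018 to 1073) and 750.4 CPM (739 to 762). Ass1 was thus lowest in library 1, and Nrg1 and F13a1 were lowest in library 3. Of the label's other genes, Itga1 had 194 CPM (185 to 203), 149 CPM (139 to 159.8) and 91.2 CPM (87.2 to 95.4), and its interval in library 3 lay below the others. Tifab had 118, 117 and 109 CPM.

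Little RNA was found for the enzymes on either side of Ass1. Asl, argininosuccinate lyase, which makes arginine from the product of Ass1, had 23.3, 17.8 and 18.9 CPM in the members of libraries 1, 2 and 3, and its median log2 ratio to promyelocyte-like cells was 0.18. Of the enzymes that use arginine, Arg1, arginase 1, had 1, 1 and 4 summed UMIs and Nos2, the inducible nitric oxide synthase, 0, 0 and 10. Arg2, arginase 2, had 28, 10 and 89 UMIs and Nos3, the endothelial synthase, 21, 5 and 25. Cps1 and Otc, the urea cycle enzymes that supply citrulline in liver, had no UMI, which allows a level of up to 0.346, 0.567 and 0.145 CPM. Slc7a1, the main importer of arginine, was at 35.1, 35.5 and 37.8 CPM. Gatm, which passes arginine on to creatine synthesis, had 50, 47.8 and 59.6 CPM and a median log2 ratio of -1.89 to promyelocyte-like cells.

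Between libraries, few genes of the arginine and polyamine list differed by 2-fold. Srm, spermidine synthase, had 102 CPM in library 3, against 38.7 and 51.9 CPM in libraries 1 and 2, a log2 ratio of 1.19. Odc1, ornithine decarboxylase, had 101 CPM in library 3, against 51.8 and 62.3 CPM in libraries 1 and 2, a log2 ratio of 0.83. Of the 23 genes of the list tested, Srm was the 1 past the 2-fold line in library 3. That is a share near the 3.19% of all 11207 genes tested that were higher. In library 1, 1 gene of the list was also higher, where 1.97% of all genes were. The median of the list was 0.11, and that of all genes -0.11.

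Receptors for neuregulin were at the edge of detection. Erbb2 had 7, 1 and 3 summed UMIs in libraries 1, 2 and 3 and Erbb4 4, 0 and 1, and Erbb3 was at 4.85, 1.70 and 1.88 CPM. Egfr, the receptor for related ligands, had 6, 7 and 4 UMIs. Nrg2, a sister ligand, was found at 24.5, 21.5 and 12.5 CPM in the Ass1/Nrg1 cells and 10.9, 8.33 and 6.59 CPM in monocytes, and was above monocytes in every library. Adam10 and Adam17, proteases that release ERBB ligands from the cell surface, stood at 94.6, 112 and 72.1 CPM and 59.0, 44.0 and 45.8 CPM. Of the 15 genes of the list tested against monocytes, 1 was at least 2-fold higher in all 3 libraries and 1 lower. The median log2 ratio was -0.25, and of all genes 0.109% were higher and 1.68% lower. The higher gene was Nrg1 itself, which the rule asks of members and not of monocytes, so it is no finding about the list.

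Among the genes of coagulation, F10, coagulation factor X, had 138, 139.6 and 157 CPM in members, 81.1, 48.3 and 76.9 CPM in promyelocyte-like cells and 169.8, 134 and 121 CPM in monocytes. F13b, the carrier subunit of factor XIII, had 0, 2 and 0 UMIs. Thbs1, thrombospondin 1, was lower than in monocytes, with 58.9, 97.1 and 50.6 CPM in the Ass1/Nrg1 cells and 168, 224 and 61.0 CPM in monocytes. Anxa2, a plasminogen receptor, stood at 473, 531 and 496 CPM, with a median log2 ratio of 1.61 to promyelocyte-like cells and -0.12 to monocytes. F13a1 itself had 1096, 1022 and 643 CPM in monocytes and 252, 226 and 241 CPM in promyelocyte-like cells.

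Among the integrins, Itga4 pairs with Itgb1 or Itgb7 in receptors for fibronectin, VCAM1 and MAdCAM1. Itgb7 was the most above promyelocyte-like cells, with 178, 165 and 125 CPM in the Ass1/Nrg1 cells and 24.1, 17.0 and 21.3 CPM in promyelocyte-like cells. Itga4 had 173, 183 and 158 CPM in members and 258, 269 and 224 CPM in monocytes. Itgam, the alpha chain of the Mac-1 complement receptor, had 141, 89.5 and 81.9 CPM in members and a median log2 ratio to monocytes of -0.98. Of the receptors for growth factors, Csf2ra, the GM-CSF receptor, had 215, 198 and 139 CPM, Csf1r 115, 118 and 82.1 CPM and Il6ra, the receptor for interleukin 6, 174, 143 and 100.2 CPM. Csf3r, the G-CSF receptor of the neutrophil line, was at 50.1, 55.7 and 28.4 CPM, with 91.6, 99.2 and 38.7 CPM in monocytes.

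Against promyelocyte-like cells, the Ass1/Nrg1 cells were higher in monocyte genes and lower in granule genes. Of the 40 tested monocyte maturation genes, 22 were higher and 0 lower, with a median log2 ratio of 1.53, against 0.09 over all genes, 5.32% of which were higher. Of the 18 primary granule genes, 16 were lower and 0 higher, with a median of -2.34, against 2.94% of all genes lower. Part of this split is set by the rule, since Elane and Prtn3 are themselves granule genes.

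Fn1, fibronectin, led the genes that were higher, with 689, 1355 and 342 CPM in the Ass1/Nrg1 cells and 38.3, 56.4 and 25.5 CPM in promyelocyte-like cells and a median log2 ratio of 4.17. S100a4, a calcium-binding protein of motile cells, had 435, 995 and 461 CPM in the Ass1/Nrg1 cells and 38.1, 52.7 and 34.1 CPM in promyelocyte-like cells (3.76). Ms4a4c, a membrane protein of monocytes, had 123, 148 and 249 CPM in the Ass1/Nrg1 cells and 11, 10.2 and 31.8 CPM in promyelocyte-like cells (3.49). For each of these genes the lowest value of the members was above the highest of the promyelocyte-like cells. They were named for their high ratios, so this separation largely follows from the choice. Next came Crip1 (3.11), the scaffold Ahnak (3.02), the lysosomal thiol reductase Ifi30 (2.95), the interferon-inducible Ifi27l2a (2.93), Itgb7 (2.88), and the lysosomal enzymes Ctss (2.76) and Naaa (2.76), all as median log2 ratios.

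Prss57, a serine protease of primary granules, was lowest relative to promyelocyte-like cells, with 10.05, 6.42 and 12.6 CPM in the Ass1/Nrg1 cells and 216, 201 and 196 CPM in promyelocyte-like cells and a median log2 ratio of -4.43. Nkg7, a granule membrane protein, had 24.5, 36.5 and 25.02 CPM in the Ass1/Nrg1 cells and 487, 627 and 482 CPM in promyelocyte-like cells (-4.27). Cd63, a tetraspanin of primary granules, had 54.7, 41.2 and 27.0 CPM in the Ass1/Nrg1 cells and 471, 485 and 385 CPM in promyelocyte-like cells (-3.56). The groups did not overlap for any of the 3, which largely follows from naming the genes with the lowest ratios. Rgcc (-3.16), Ms4a3 (-3.03), Fcnb (-2.96), Camp (-2.78) and the granulocyte transcription factor Cebpe (-2.67) followed, and Elane (-3.74) and Mpo (-3.54) belong to the definitions.

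The lineage transcription factors divided in both directions. Of 28 tested, 6 were higher and 5 lower than in promyelocyte-like cells, where 5.32% of all genes were higher and 2.94% lower. Klf4 had 345, 279.6 and 234 CPM in the Ass1/Nrg1 cells and 69.9, 52.9 and 95.5 CPM in promyelocyte-like cells, and Irf5, a factor of inflammatory myeloid cells, had 101, 96.5 and 83.4 CPM in the Ass1/Nrg1 cells and 15.5, 13.8 and 19.7 CPM in promyelocyte-like cells. Gfi1, the repressor that directs the neutrophil line, had 4.85, 2.27 and 2.75 CPM in the Ass1/Nrg1 cells and 73.3, 49.6 and 24.3 CPM in promyelocyte-like cells, and Myb, a factor of proliferating progenitors, 71.6, 71.6 and 48.5 CPM in the Ass1/Nrg1 cells and 296, 337 and 169 CPM in promyelocyte-like cells. All 4 factors were at least 2-fold apart in every library. Irf8, the factor needed for monocytes in mice, had 509, 412 and 284 CPM in the Ass1/Nrg1 cells and 228, 163 and 186 CPM in promyelocyte-like cells and did not reach 2-fold in library 3. Spi1 and Cebpa differed little, with median log2 ratios of 0.40 and -0.09.

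Against Cd34-positive cells, 23 of the 40 monocyte maturation genes were higher and 0 lower, with a median log2 ratio of 1.73. The median over all genes was -0.30, with 2.54% of all genes higher and 15.3% lower, so that lower counts in this comparison start from a large background. Ly6c2, the monocyte surface protein Ly6C, had 3557, 3602 and 3255 CPM in the Ass1/Nrg1 cells and 866, 380.4 and 461 CPM in Cd34-positive cells. Lyz2, lysozyme, had 5978, 7139 and 5069.9 CPM in the Ass1/Nrg1 cells and 1568, 708 and 714 CPM in Cd34-positive cells, and Gpr141, an orphan receptor, 310.5, 209 and 249 CPM in the Ass1/Nrg1 cells and 63.0, 23.4 and 32.3 CPM in Cd34-positive cells. Every member value of the 3 genes was above every value of the Cd34-positive cells. Large ratios were a reason to name genes here, so this carries no weight of its own. Ctsc, which activates granule proteases, Lgals3, galectin 3, and F10 were higher by median log2 ratios of 2.83, 2.81 and 2.60.

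Among the genes named as lowest relative to Cd34-positive cells were some known from stem and progenitor cells and some from other lineages. Adgrg1, a receptor of blood stem cells, had 3.35, 4.91 and 6.75 CPM in the Ass1/Nrg1 cells and 168, 146 and 121 CPM in Cd34-positive cells. Sox4, a factor of immature cells, had 24.7, 15.1 and 14.6 CPM in the Ass1/Nrg1 cells and 330.2, 277 and 181 CPM in Cd34-positive cells, and Ctla2a 1.501, 4.91 and 14.5 CPM in the Ass1/Nrg1 cells and 178, 222 and 320.4 CPM in Cd34-positive cells. The members were below the Cd34-positive cells in every library for these genes. The platelet gene Pf4 (-7.13) and the fibroblast gene Dcn (-3.22) were also lower in the members, so RNA of other lineages was present among the Cd34-positive cells. Of 28 lineage factors, 10 were lower and 3 higher.

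Fewer genes set the Ass1/Nrg1 cells apart from monocytes than from the other populations. The monocyte gate left out members but asked nothing of Ass1, Nrg1 or F13a1. Cells that missed the rule only for lack of an Ass1 or Nrg1 UMI could thus be among the monocytes. The part of such cells in these counts was not tested. The gate also asked for a UMI of Fn1, which members did not need, and the part of this was not tested either. Of 12881 genes, 14 were at least 2-fold higher in the members in all 3 libraries, which is 0.109%, and 216, or 1.68%, were lower. Of the 18 granule genes 5 were higher, with a median log2 ratio of 0.50. Of the 40 maturation genes 0 were higher and 1 lower, with a median of -0.46, against -0.10 over all genes.

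Of the granule genes outside the rule, Ctsg, cathepsin G, had 311, 262 and 435 CPM in the Ass1/Nrg1 cells and 103, 51.1 and 155 CPM in monocytes, a median log2 ratio of 1.59. Ms4a3, a membrane protein of granulocyte-monocyte progenitors, had 102, 60.1 and 196 CPM in the Ass1/Nrg1 cells and 41.6, 15.7 and 60.7 CPM in monocytes (1.69). Elane (1.38), Prtn3 (1.36) and Nrg1 (2.32) were also counted, and they are genes of the rule. Under a protease limit of 20 per 10000, 3 genes in place of 14 were higher and the granule median was -0.28 in place of 0.50. Among cells of 10000 to 30000 UMIs in both populations, 5 genes were higher and the median was 0.23.

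Genes of antigen presentation by MHC class II were lower than in monocytes, 4 of 15 tested and none higher, with a median log2 ratio of -0.81. Of all genes, 1.68% were lower in this comparison. Cd74, the invariant chain, had 61.2, 49.3 and 103 CPM in the Ass1/Nrg1 cells and 189, 536 and 295 CPM in monocytes (-1.62). H2-Aa had 22.9, 14.5 and 35.9 CPM in the Ass1/Nrg1 cells and 48.5, 197 and 89.4 CPM in monocytes (-1.32). Ccl6, a chemokine of myeloid cells, had 106, 168 and 92.5 CPM in the Ass1/Nrg1 cells and 321, 471 and 229 CPM in monocytes (-1.49). For all 3 the monocytes were higher in each library. Slfn5, an interferon-inducible gene, had a median log2 ratio of -2.07, and the matrix gene Sparc one of -2.22. Members were deeper than monocytes, whose median depth was 6856, 8323 and 12097 UMIs, and among cells of 10000 to 30000 UMIs the median of the MHC class II list was -0.44.

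**Figure D2:**
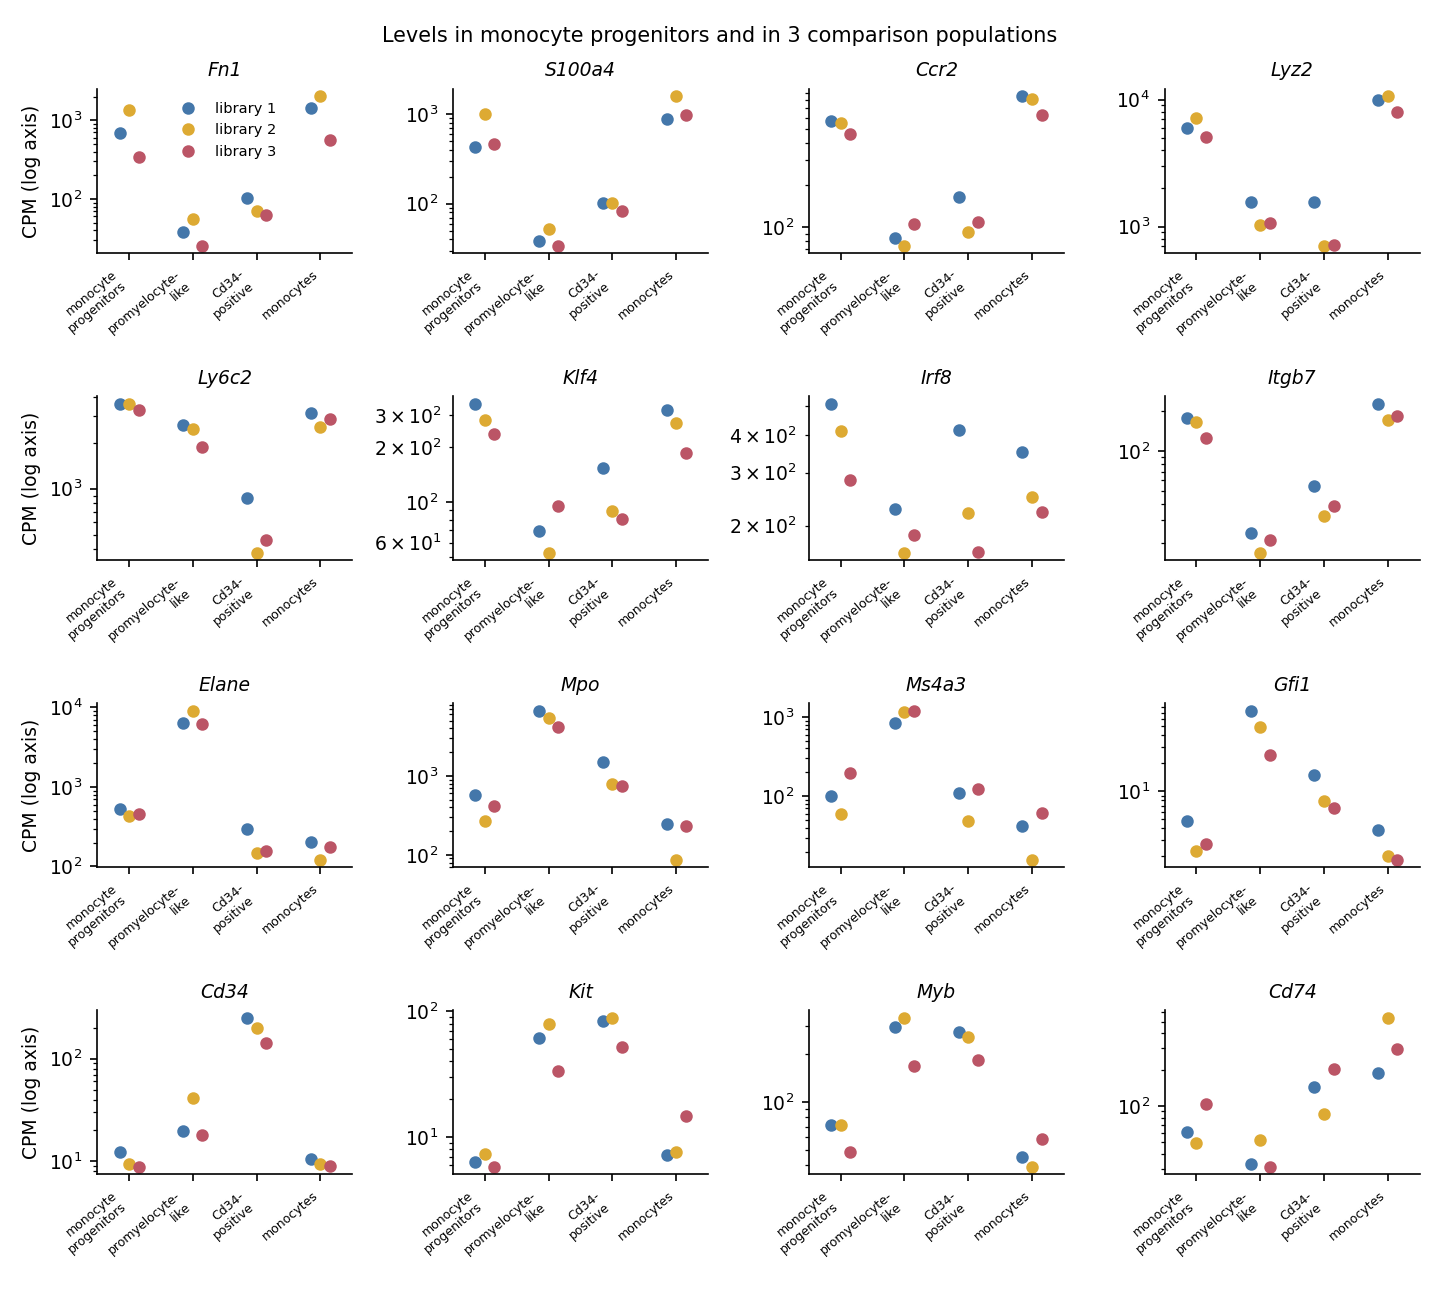
Levels of 16 genes in CPM on a log axis, with the Ass1/Nrg1 cells leftmost, then promyelocyte-like cells, Cd34-positive cells and monocytes; each point is 1 library. Fn1, S100a4, Ccr2 and Lyz2 are high in the Ass1/Nrg1 cells and in monocytes, Elane, Mpo, Ms4a3 and Gfi1 in promyelocyte-like cells, and Cd34 and Kit in Cd34-positive cells.

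Against all other kept cells, the members' higher genes outside the rule were C1galt1c1, a chaperone of glycan synthesis (1.96), Naaa (1.96), Ccr2, the receptor for the chemokine that draws monocytes out of marrow (1.93), S100a10 (1.92) and Ctsc (1.90), as median log2 ratios. In all, 1.07% of 16975 genes were higher and 13.2% lower. The lowest were genes of bone and cochlear connective tissue, such as Bglap (-3.54), Coch (-3.42) and Col1a1 (-3.29).

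The machinery of phagocytes was counted by list. Of the 27 lysosome genes tested, 7 were at least 2-fold higher than in promyelocyte-like cells, where 5.32% of all genes were, with a median log2 ratio of 0.68, and none in either direction against monocytes, with a median of -0.32. Psap, the precursor of the saposins that help to degrade sphingolipids, had 2122, 1930.2 and 1065 CPM in the Ass1/Nrg1 cells and 434, 338 and 296 CPM in promyelocyte-like cells. Ctss, cathepsin S, had 338, 312 and 382 CPM in the Ass1/Nrg1 cells and 591, 579 and 599 CPM in monocytes. The members thus lay above promyelocyte-like cells for Psap and below monocytes for Ctss in every library. Of the genes of the NADPH oxidase, which makes superoxide, 3 of 8 were higher than in Cd34-positive cells, where 2.54% of all genes were, and none lower, with a median of 0.97. Cybb, its catalytic subunit, had 789, 611 and 579 CPM in the Ass1/Nrg1 cells and 341, 114 and 141 CPM in Cd34-positive cells.

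For chemokine receptors, Ccr2 had 567, 549.5 and 457 CPM in the Ass1/Nrg1 cells and 84.4, 73.9 and 105 CPM in promyelocyte-like cells. Cx3cr1, the fractalkine receptor of patrolling monocytes, had 18.5, 33.4 and 11.4 CPM in the Ass1/Nrg1 cells and 45.8, 88.0 and 25.9 CPM in monocytes. Ccr2 was thus high in the members and Cx3cr1 below monocytes in every library. Of the whole list, 3 of 22 genes were higher than in promyelocyte-like cells, where 5.32% of all genes were, and 2 of 24 lower than in monocytes, where 1.68% of all genes were. Of the immediate-early genes, 12 of 27 were higher, against that same 5.32%, and 1 lower than in promyelocyte-like cells, with a median of 1.07, and none passed 2-fold against monocytes, with a median of -0.73. Myc, the growth factor-induced transcription factor, had 8.31, 15.7 and 16.1 CPM in the Ass1/Nrg1 cells and 25.4, 50.5 and 34.3 CPM in promyelocyte-like cells, and was lower in every library.

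Within the members, the level of Elane and Prtn3 was a graded property and other genes were ordered along it. Members were split at 2, 10 and 25 UMIs of both proteases per 10000, which gave 43, 137, 192 and 183 cells in library 1, 44, 117, 64 and 56 in library 2, and 17, 202, 268 and 259 in library 3. Since the proteases are part of the rule, the values are a description. Mpo stood at 76.3, 221 and 1213 CPM in the bins from 2 to 10, 10 to 25 and 25 to 50 of library 1, at 58.9, 135 and 829.9 CPM in library 2 and at 84.2, 196 and 786 CPM in library 3. Ctsg stood at 69.9, 198 and 573 CPM, 74.0, 268 and 677 CPM and 63.7, 267 and 789 CPM in the same bins of libraries 1, 2 and 3. Both granule genes were higher with each step in every library.

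Myb, Ncl and Irf8 were higher along the same axis. Myb had 32.6, 55.5 and 113 CPM in these bins of library 1, 42.7, 66.5 and 110.5 CPM in library 2 and 25.8, 40.8 and 65.7 CPM in library 3. Ncl, nucleolin, which takes part in making ribosomes, had 408, 538 and 802 CPM, 370.4, 518 and 680.5 CPM and 731, 967 and 1412 CPM. Irf8 was also higher with the proteases, at 334, 497 and 624 CPM, 368, 454 and 562 CPM and 225, 269.7 and 336 CPM. Each of the 3 genes was higher in the bin from 25 to 50 than in the bin from 2 to 10 in all 3 libraries. Genes of division did not follow them: Mki67 had 1017, 935 and 705 CPM, 746, 778 and 418 CPM and 877, 732 and 605 CPM in libraries 1, 2 and 3, and Top2a 1063, 1156 and 898 CPM, 1026, 944 and 707 CPM and 1143, 1041 and 899 CPM, each lowest in the bin from 25 to 50.

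Several maturation genes ran the other way. Fn1 had 1391, 668 and 209.8 CPM in the bins of library 1, 2205, 947 and 239 CPM in library 2 and 691, 379.8 and 123 CPM in library 3. S100a4 had 724, 449 and 197 CPM, 1456, 814 and 395 CPM and 921, 476 and 212 CPM, and Ccr2 758, 585 and 414 CPM, 745, 483 and 331 CPM and 627, 503 and 337 CPM. All were lower with each step. Itgam had 247, 137 and 72.6 CPM, 113, 68.8 and 43.4 CPM and 151, 85.1 and 42.1 CPM, and Ctss, Lyz2 and Psap were also lower with more protease. In contrast, Ly6c2 had 3362, 3624 and 3671 CPM, 3424, 4004 and 4145 CPM and 3262, 3353 and 3272 CPM, and Tifab 116, 121 and 118 CPM, 134, 97.0 and 131 CPM and 109.8, 106 and 113 CPM, which is nearly flat.

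Cells just outside the limit, at 50 to 100 UMIs per 10000, continued the order for Mpo and Fn1. They had 3195, 2424 and 1919.5 CPM of Mpo and 74.4, 126 and 46.6 CPM of Fn1 in libraries 1, 2 and 3, so the limit of 50 cut through a gradient. The lowest bin, under 2 UMIs per 10000, departed from it in places: in library 3 its 17 cells had 1548 CPM of Ncl, against 731 CPM in the bin from 2 to 10, and 8352 CPM of hemoglobin Hbb-bs. Median depth was higher along the axis too, in library 3 at 17028, 18813.5, 23819 and 32277 UMIs, and its part was not tested.

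**Figure D3:**
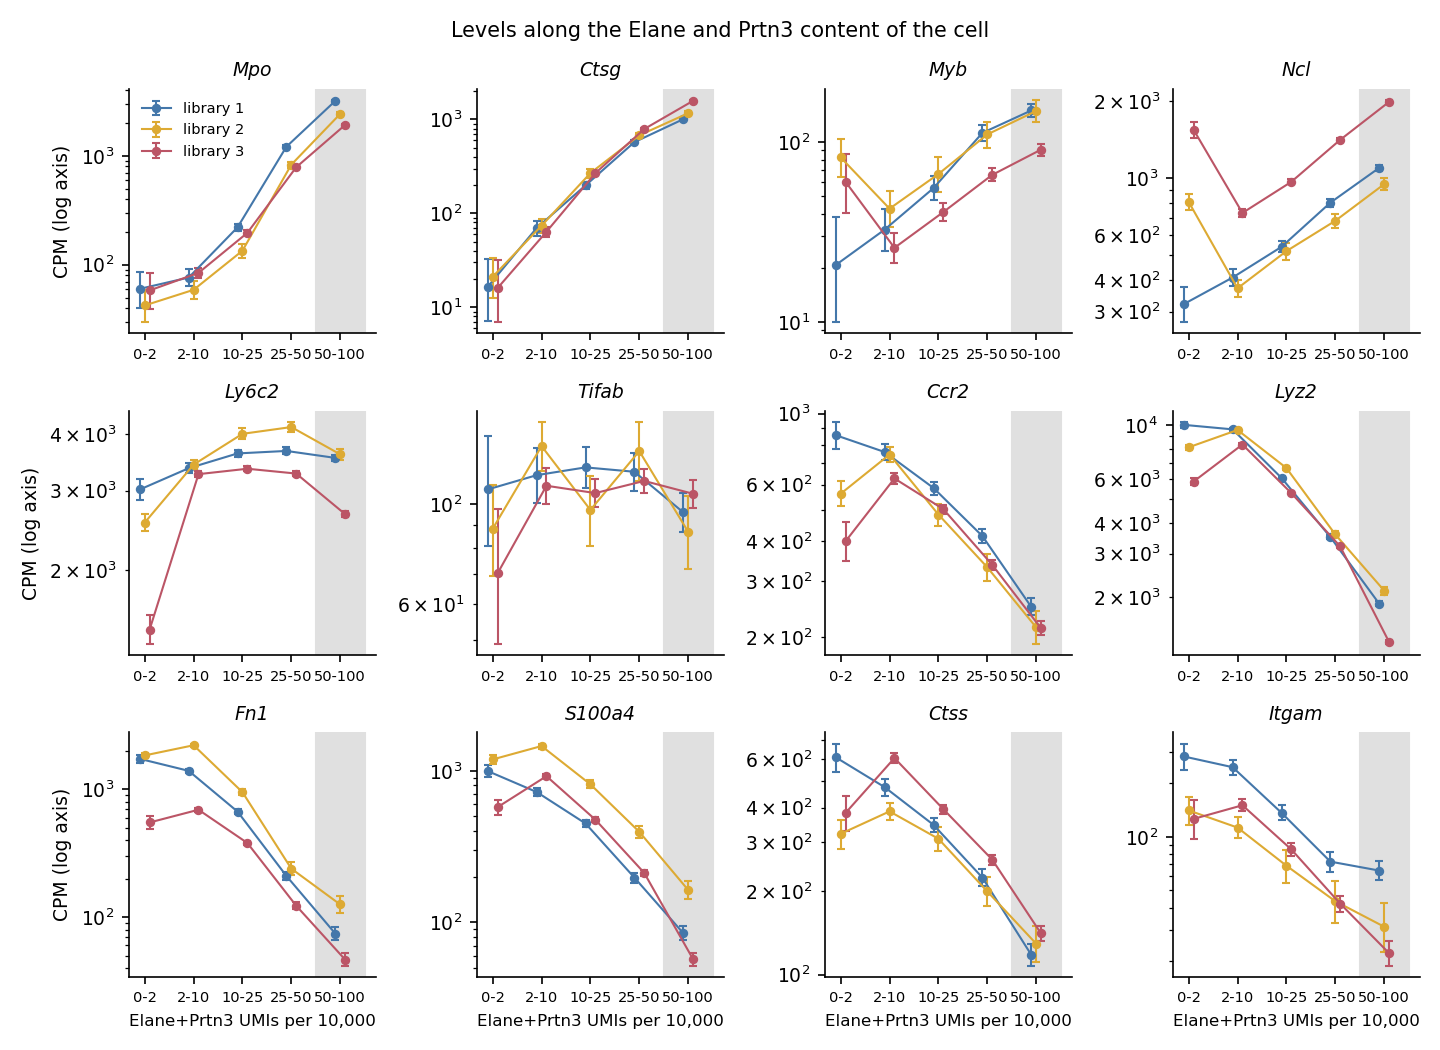
Levels of 12 genes in CPM on a log axis against bins of Elane and Prtn3 UMIs per 10000, 1 line per library, with exact 95% Poisson intervals; the grey band holds cells just outside the limit, at 50 to 100. Mpo, Ctsg, Myb and Ncl are higher toward the right from the second bin on, Fn1, S100a4, Ctss and Itgam are lower, and Ly6c2 and Tifab are nearly flat.

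Nearly all Ass1/Nrg1 cells carried RNA of mitotic genes. With each cell thinned to 3000 UMIs, a UMI of at least 1 of Mki67, Top2a, Cdk1, Ccnb1, Ccnb2, Birc5 and Cenpf was found in 93.7% (91.3 to 95.6), 94.6% (91.3 to 97.0) and 96.0% (94.3 to 97.3) of members in libraries 1, 2 and 3. Without thinning the shares were 97.7, 98.2 and 99.2%. The thinned shares were 92.9, 87.4 and 96.0% in promyelocyte-like cells, 64.5, 65.4 and 76.0% in Cd34-positive cells and 65.2, 54.6 and 76.2% in monocytes. T cells, which here show free RNA and any cycling of their own, were at 64.8, 45.7 and 64.9%, so a single UMI is a weak sign. Members and promyelocyte-like cells were above the other populations in every library.

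The number of such UMIs set the members apart further. At 3000 UMIs per cell, the median member had 17, 16 and 16 UMIs of the list of G2 and M phase genes in libraries 1, 2 and 3. Promyelocyte-like cells had 10, 7 and 11, monocytes 4, 2 and 6 and T cells 4, 1 and 2. For the S phase genes, which copy DNA, the medians were 7, 7 and 8 in members, 9, 7 and 8 in promyelocyte-like cells, 2, 2 and 3 in monocytes and 5, 2 and 3 in T cells. The members thus had the most G2 and M phase RNA of these populations, and about as much S phase RNA as promyelocyte-like cells.

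Top2a, the topoisomerase that untangles chromosomes, had 1022, 899 and 989.7 CPM in the Ass1/Nrg1 cells and 633, 405 and 617 CPM in promyelocyte-like cells. Mki67, the Ki-67 protein of dividing cells, had 852, 639.8 and 705 CPM in the Ass1/Nrg1 cells and 523, 212 and 374 CPM in promyelocyte-like cells. For both genes each member value was above each promyelocyte-like value. None of the 25 G2 and M phase genes reached 2-fold in all 3 libraries in either direction, and their median log2 ratio was 0.57 to promyelocyte-like cells and 0.48 to monocytes. Summed UMIs weigh a cell by its depth, and among cells of 10000 to 30000 UMIs the median to monocytes was 0.15. Between libraries the list was level, with a median of 0.02 in library 3 and no gene past 2-fold. A total of 24 members (13, 5 and 6) had no UMI of the 7 genes at full depth. The rule favours deep cells and was read at full depth, before any thinning. The part of this choice in the shares and counts above, thinned or at full depth, was not tested.

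**Figure D4:**
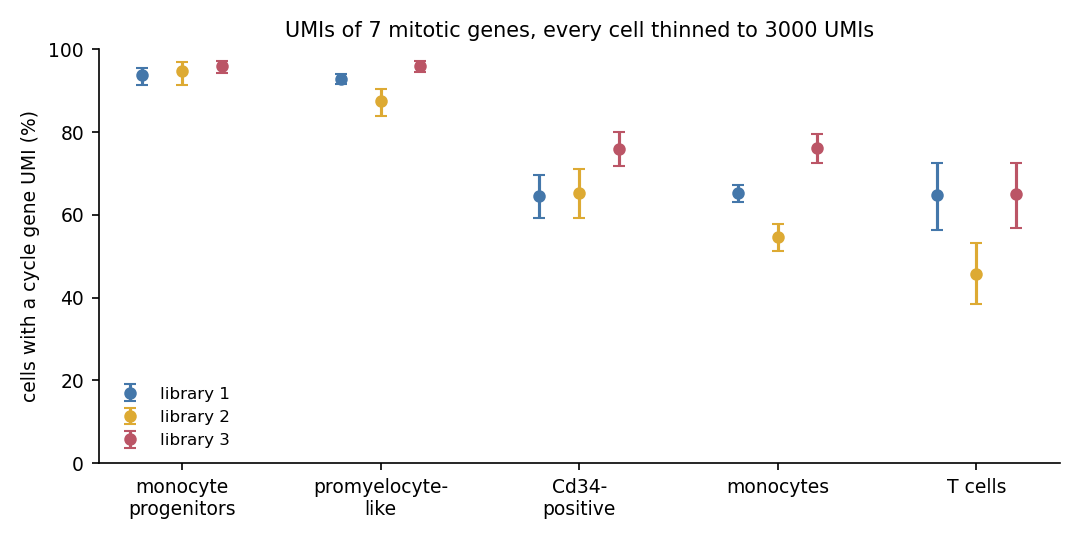
Percent of cells with a UMI of any of 7 mitotic genes after thinning each cell to 3000 UMIs, in 5 populations and 3 libraries, with exact 95% intervals. The Ass1/Nrg1 cells stand at 93.7%, 94.6% and 96.0%, and monocytes at 65.2%, 54.6% and 76.2%.

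Of the 24 gene lists, those of genes that interferons induce had the highest medians in the members of library 3 over those of libraries 1 and 2. Genes that type I interferons induce often carry promoter elements that repeat the letters GAAA. The 250 bases before the start are printed for Isg15, which encodes a ubiquitin-like protein, and for Cxcl10, which encodes a chemokine for T cells, as both were among the 10 genes highest in library 3. They are from RefSeq with the build GRCm38.p6, on the minus strand, at chr4:156200819-156201068 and chr5:92348890-92349139, while the counts were made on GRCm39. Capitals mark each match of GAAANNGAAA, searched on both strands, where matches may overlap. Where a gene had several windows, the one with the most matches was taken.
Isg15: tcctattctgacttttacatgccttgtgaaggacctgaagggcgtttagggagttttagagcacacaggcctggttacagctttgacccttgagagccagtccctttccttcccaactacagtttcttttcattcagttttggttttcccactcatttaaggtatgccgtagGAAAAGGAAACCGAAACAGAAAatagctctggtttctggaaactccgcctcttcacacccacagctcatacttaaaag
Cxcl10: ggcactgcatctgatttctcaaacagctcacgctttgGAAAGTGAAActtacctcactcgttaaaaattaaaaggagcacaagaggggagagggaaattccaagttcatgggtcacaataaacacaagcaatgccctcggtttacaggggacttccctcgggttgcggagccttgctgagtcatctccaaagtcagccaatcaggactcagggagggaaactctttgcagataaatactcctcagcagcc
The stretch before Oasl2, the other gene of the interferon lists among the 10 highest, holds no match and is not printed. The Isg15 stretch holds 3 overlapping matches that begin 78, 72 and 66 bases before the start, and that of Cxcl10 holds 1, at 213. In windows of 250 bases before to 50 after the start, the motif was in 3.44% of 32851 windows, in 4.08% of the 8804 tested genes with a window and in 15.95% of the 257 such genes that were higher in library 3. It was in 16 of the 24 type I interferon genes that were higher and had a window, and in 3 of the 8 that did not pass 2-fold. A match is a run of letters and was not tested as a binding site.

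Isg15 had 104 CPM in library 3, against 15.8 and 17.9 CPM in libraries 1 and 2, a log2 ratio of 2.62 to libraries 1 and 2, whose levels were combined as a geometric mean. Cxcl10 had 226 CPM in library 3, against 62.5 and 7.75 CPM in libraries 1 and 2 (3.36), and Oasl2, an antiviral oligoadenylate synthetase-like protein, 59.4 CPM in library 3, against 15.2 and 6.04 CPM in libraries 1 and 2 (2.63). In each case library 3 was above both other libraries, and the intervals do not overlap: for Isg15 they were 99.4 to 108 CPM in library 3, against 13.3 to 18.7 and 14.5 to 21.9 CPM in libraries 1 and 2. Isg15 was found in 69.2% of the members of library 3, against 14.8% and 14.9% in libraries 1 and 2, and in 39.0% of T cells in library 3, against 24.02% and 13.5% in libraries 1 and 2. T cells are shallower, and their level was above that of the members in every library, at 115 CPM in library 3, against 59.8 and 26.01 CPM in libraries 1 and 2. The part of free RNA in the members' Isg15 was not tested.

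As a group, 31 of the 41 tested genes of the type I interferon response were at least 2-fold higher in library 3 and none lower, with a median log2 ratio of 1.48, against -0.11 over all genes. Over all genes, 3.19% were higher and 3.95% lower. Irf7, the factor that amplifies interferon output, had 50.8 CPM in library 3, against 13.6 and 8.31 CPM in libraries 1 and 2 (2.26). Bst2, tetherin, had 287 CPM in library 3, against 119.5 and 88.0 CPM in libraries 1 and 2 (1.48). Both were highest in library 3. Ly6e and Irf9 did not differ by 2-fold, with log2 ratios of 0.00 and 0.23.

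The interferon-gamma list was also higher, with 16 of 20 genes higher, against 3.19% of all genes, none lower and a median of 1.79. Gbp2, a guanylate-binding GTPase that attacks vacuoles of microbes, had 85.6 CPM in library 3, against 32.7 and 17.6 CPM in libraries 1 and 2 (1.84). Iigp1, another such GTPase, had 49.4 CPM in library 3, against 5.43 and 9.63 CPM in libraries 1 and 2 (2.77). Fcgr1, the high-affinity IgG receptor that interferon-gamma raises on monocytes, had 67.9 CPM in library 3, against 17.7 and 10.01 CPM in libraries 1 and 2 (2.35), with a UMI in 70.8% of members in library 3, against 18.2% and 15.7%. Library 3 was the highest of the libraries for all 3 genes. The receptors did not reach 2-fold: Ifnar1 had 26.5 CPM in library 3, against 37.6 and 26.3 CPM in libraries 1 and 2, and Ifngr1 132 CPM in library 3, against 199 and 189.7 CPM in libraries 1 and 2.

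Inflammatory genes were higher in library 3 as well, 22 of 39, against 3.19% of all genes, with none lower and a median of 1.23. Cxcl2, a chemokine for neutrophils, had 323 CPM in library 3, against 57.3 and 5.48 CPM in libraries 1 and 2 (4.19). Il1b, interleukin 1 beta, had 186 CPM in library 3, against 75.7 and 51.4 CPM in libraries 1 and 2 (1.58), and Tnf 173 CPM in library 3, against 66.3 and 23.4 CPM in libraries 1 and 2 (2.13). Il1r2, the decoy receptor for interleukin 1, had 73.3 CPM in library 3, against 10.7 and 6.23 CPM in libraries 1 and 2 (3.16). Nfkbiz, a nuclear partner of NF-kB, had 213 CPM in library 3, against 113 and 36.5 CPM in libraries 1 and 2 (1.73). In these 5 genes library 2 was the lowest, and library 3 was above both. Genes of the inflammatory and type I interferon lists were low in library 2: 18 of the 39 inflammatory genes were at least 2-fold lower there and 1 higher, where 2.79% of all genes were lower, and 22 of the 41 type I interferon genes were lower and 1 higher. The 3 ratios of a gene sum to 0, so these counts and those of library 3 are not separate results.

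The interferon difference of library 3 was found in every population measured, by amounts that differed. The type I list had a median log2 ratio in library 3 of 1.48 in the Ass1/Nrg1 cells, 1.52 in promyelocyte-like cells, 1.12 in Cd34-positive cells, 0.79 in monocytes with or without Saa3 and 0.53 in T cells. For the interferon-gamma list the medians were 1.79 in the Ass1/Nrg1 cells, 1.63 in promyelocyte-like cells, 1.06 in Cd34-positive cells, 1.35 in monocytes with or without Saa3 and 0.59 in T cells. The inflammatory list had 1.23 in the Ass1/Nrg1 cells, 0.82 in promyelocyte-like cells, 0.22 in Cd34-positive cells, 0.62 in monocytes with or without Saa3 and -0.67 in T cells, and so was not higher in T cells. Whether the populations differ in their response was not tested, since each is 1 value per library.

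Genes of ribosome making and of heat shock had smaller ratios in library 3. The 27 ribosome-making genes had a median log2 ratio of 0.71 with 1 past 2-fold, a share near the 3.19% of all genes that were higher, and the heat shock genes 0.70 with 5 of 21 past it. Ncl had 1117 CPM in library 3, against 604 and 553 CPM in libraries 1 and 2 (0.95), and Hspa1a, the inducible HSP70, 41.9 CPM in library 3, against 7.85 and 9.26 CPM in libraries 1 and 2 (2.30). The integrated stress response had a median of 0.69 and 5 of 24 genes higher, to be read against the same 3.19%. In T cells the medians for ribosome making and heat shock were 0.79 and 0.80, so T cells had these shifts too. Immediate-early genes, which also respond to dissociation, had a median of 0.47 in the members of library 3, with 3 of 27 higher, and the part of dissociation was not tested.

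**Figure D5:**
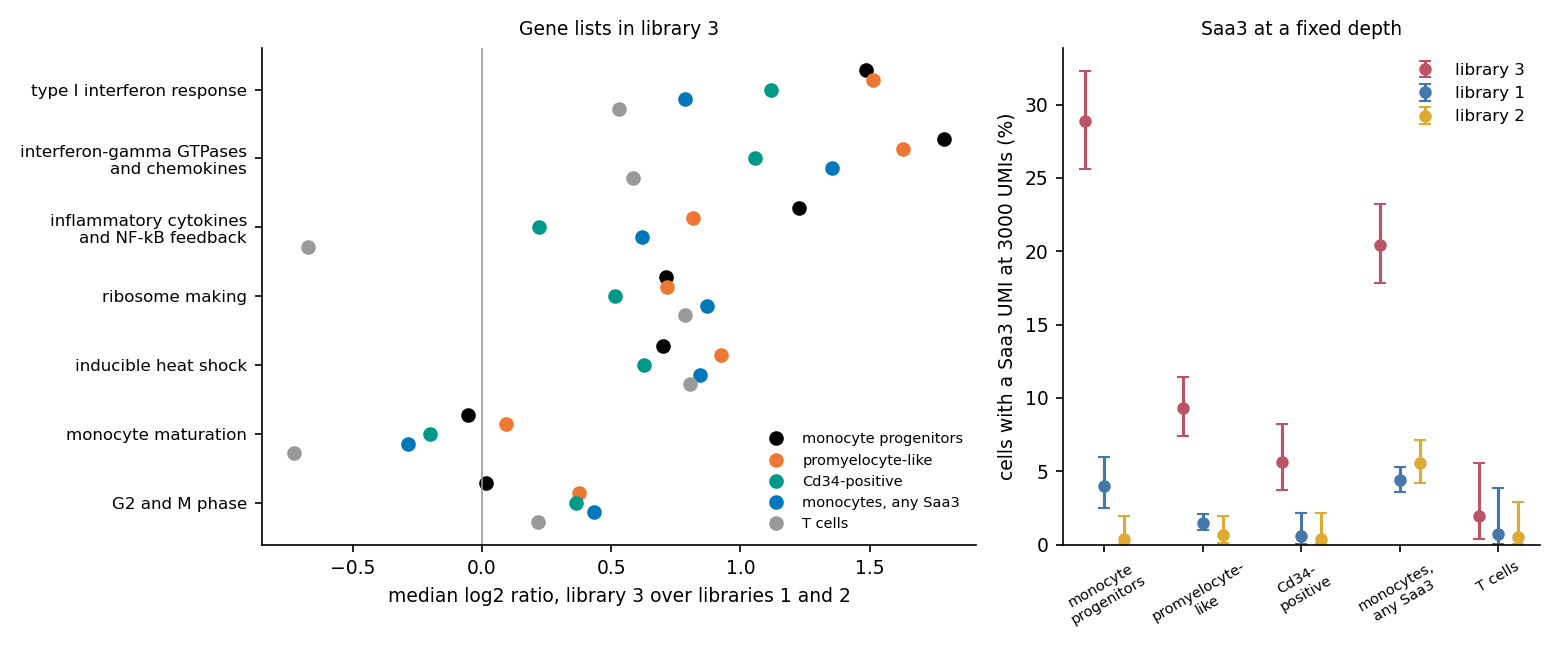
Left, median log2 ratio of library 3 to the geometric mean of libraries 1 and 2 for 7 gene lists in 5 populations; right, percent of cells with a UMI of Saa3 at 3000 UMIs per cell with exact 95% intervals, library 3 first. In the Ass1/Nrg1 cells the interferon lists stand at 1.48 and 1.79, and G2 and M phase at 0.02.

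Saa3, an acute-phase serum amyloid A, had the highest ratio in library 3 of the genes with at least 50 CPM in 1 library, with 422 CPM in library 3, against 20.8 and 2.83 CPM in libraries 1 and 2 and a log2 ratio of 5.78. A UMI of Saa3 was found in 387 of 746 members (51.9%) in library 3, against 59 of 555 (10.6%) in library 1 and 8 of 281 (2.85%) in library 2. At 3000 UMIs per cell the shares were 28.9% (25.6 to 32.3) in library 3, against 3.96% (2.50 to 5.94) in library 1 and 0.357% (0.00904 to 1.97) in library 2. T cells were at 1.95%, 0.704% and 0.532% in libraries 3, 1 and 2, so the members of library 3 stood above the free-RNA level. Monocytes taken with or without Saa3 were at 20.4% in library 3, against 4.39% and 5.55%.

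Within library 3, members with and without Saa3 were set side by side, a split by a measured gene that carries no test. The 387 Saa3-positive members had a median of 26058 UMIs and the 359 others 21981. Vcan, versican, had 262 CPM with Saa3 and 110.4 CPM without, and Cd14, the lipopolysaccharide co-receptor, 146 CPM with Saa3 and 79.5 CPM without. Tnf had 220.5 CPM with Saa3 and 113 CPM without, and Il1b 241 CPM with Saa3 and 116 CPM without. These 4 genes were higher in the Saa3-positive members. Itga1 had 71.4 CPM with Saa3 and 116 CPM without, and Irf8 236 CPM with Saa3 and 343 CPM without. Gbp2 had 67.4 CPM with Saa3 and 109 CPM without, and Ifit3 4.92 CPM with Saa3 and 10.9 CPM without. Itga1, Irf8, Gbp2 and Ifit3 were thus lower with Saa3. Other interferon genes went the other way: Cxcl10 had 282 CPM with Saa3 and 155 CPM without, and Isg15 111 CPM with Saa3 and 93.9 CPM without. Ly6c2, with 3076 CPM with Saa3 and 3482 CPM without, Mki67, with 735 CPM with Saa3 and 667 CPM without, and Irf7, with 50.7 CPM with Saa3 and 51.0 CPM without, were close. Without any Saa3-positive member in any library, the type I interferon median of library 3 was 1.53 and the inflammatory median 0.87, so the interferon difference was as large without these cells.

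Genes that set library 1 apart included replication-dependent histones. Hist1h2ac had 77.1 CPM in library 1, against 14.4 and 7.91 CPM in libraries 2 and 3 (2.86), and Hist1h3d 56.8 CPM, against 15.3 and 11.2 CPM (2.12). Such RNA mostly lacks the poly(A) tail that a 3′ library captures. In library 1, 1.97% of genes were higher and 2.5% lower. Other leading genes of library 1 were those of secondary granules of neutrophils, Ltf (1.90), Camp (1.81) and Ngp (1.74), and the 7 markers of early neutrophils summed to 8705, 4542 and 3234 CPM in members and 11279, 2525 and 3439.6 CPM in T cells of libraries 1, 2 and 3.

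Library 2, in which 3.05% of genes were higher, held the highest levels of several maturation genes. Fn1 had 1355 CPM in library 2, against 689 and 342 CPM in libraries 1 and 3 (1.48). S100a4 had 995 CPM in library 2, against 435 and 461 CPM in libraries 1 and 3 (1.15), and Crip1 2983 CPM in library 2, against 1475 and 1428 CPM in libraries 1 and 3 (1.04). Cxcr4, the receptor that holds cells in marrow, had 244 CPM in library 2, against 157 and 78.4 CPM in libraries 1 and 3 (1.14). Library 2 was above both others in these genes. The median of the whole maturation list was 0.14 in library 2, with 4 of 40 genes higher. The members of library 2 also had the fewest protease UMIs, a median of 7.58 per 10000, against 16.7 and 16.9 in libraries 1 and 3. The 10 genes highest in library 2 were led by bone and red cell genes, such as Bglap (4.06) and Slc4a1 (3.02), beside the hemoglobin values of members and T cells given above. Within the bin from 2 to 10, Fn1 was still highest in library 2, at 2205 CPM, against 1391 and 691 CPM.

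Single cells decided some of the largest ratios. Of the platelet gene Pf4 in library 3, 1 member held 4165 of its 4622 UMIs. Of the airway gene Bpifa1 in library 1, 1 member held 3084 of its 3110 UMIs, and of the immunoglobulin gene Igha 2041 of its 2706 UMIs. Of the mast cell protease gene Prss34 in library 2, 1 member held 447 of its 469 UMIs. Without each gene's highest member, the log2 ratio of Pf4 in library 3 was 2.90 in place of 5.44, that of Bpifa1 in library 1 -1.93 in place of 4.95, and that of Saa3 5.94 in place of 5.78. Of the genes higher in library 1, 2 and 3, 146 of 221, 246 of 342 and 307 of 357 were still counted without the highest member, and of those lower 215 of 280, 256 of 313 and 328 of 443.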

How the data were processed

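The authors deposited 1 matrix of counts: whole UMIs per gene and barcode, 32285 genes by 39092 barcodes, with 371949361 UMIs in all. The submitters' processing notes name Cell Ranger 7.1.0 and the build GRCm39. Everything else was computed here with Python 3.11.15, numpy 2.4.6, pandas 2.3.3, scipy 1.17.1, scanpy 1.11.5 (Scrublet doublet calls at an expected rate of 6%) and, for 1 alternative, edgeR 4.0.16 in R 4.3.3. The members, gene lists and comparisons were chosen with earlier results of these data known.

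UMIs were summed per population and library and scaled to CPM, with exact 95% Poisson intervals, and shares carry exact Clopper-Pearson intervals. Counting intervals do not cover differences between animals, whose 6 per library were pooled. A gene without any UMI was set to a floor of 3 UMIs in ratios, and a floored value was never the higher side of a call. Any other count kept its own level, so a gene with 1 UMI could stand below the floor. Between libraries a ratio is 1 library over the geometric mean of the other two, for genes with at least 50 summed UMIs. List medians use genes with at least 20 summed UMIs, and a list was counted past a ratio of 1.5. With 1 library per group no test across genes was possible.

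Genes were named by rule: for each library up to 10 with the highest and 5 with the lowest ratio, where a level reached 50 CPM somewhere, and per population up to 10 each way among genes past 2-fold in all libraries with at least 100 CPM. Per list the rule took up to 5 genes by level and 3 by spread, beside the rule's genes, the label's markers and the lineage factors. Asl, Arg1, Arg2, Nos2, Nos3, Cps1, Otc, Gatm, Odc1, Slc7a1, Egfr, Erbb2, Erbb4, F13b, Itgam, Tnf, Nfkbiz, Irf7, Irf9, Ifnar1, Iigp1, Ifit3 and Cd14 fall outside it and were chosen after their values were seen. T cells (a UMI each of Cd3e, Cd3d and Trbc2; 179, 215 and 159 cells) were added after seeing the data, as a level of free RNA. Of 19 alternatives, 15 were planned and 4 were chosen after seeing the data.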

Additional observations from a re-analysis of the deposited data

How the results depend on the processing

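No paired analysis was possible because each group is 1 library and the comparisons gave no test. The share of members in libraries 1, 2 and 3 was 0.971%, 1.41% and 3.55% with at least 2 UMIs of each gene, 1.87%, 2.19% and 3.96% under a protease limit of 20, 4.39%, 3.44% and 8.66% under 100, and 0.54%, 0.582% and 0.71% on thinned cells. Library 3 stood at 5.31% without cells over 30000 UMIs.

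At the chosen settings, 221 genes were higher and 280 lower in library 1, 342 and 313 in library 2, and 357 and 443 in library 3, and these counts depended on the settings. With the rule read on thinned cells, 178 members were left, 69, 44 and 65 in libraries 1, 2 and 3. All levels were still taken at full depth, here and wherever thinned cells are named below. The counts were then 114 higher and 81 lower in library 1, 91 and 193 in library 2, and 143 and 173 in library 3. With no minimum of summed UMIs they were 1099 higher and 790 lower in library 1, 1506 and 644 in library 2, and 628 and 1668 in library 3, and at a ratio of 1.5 they were 1002 higher and 708 lower in library 1, 963 and 863 in library 2, and 1119 and 1665 in library 3. Among the 24 members without a cycle UMI they were 29 higher and 12 lower in library 1, 18 and 58 in library 2, and 46 and 35 in library 3. A minimum of 20 UMIs gave 475 and 486 in library 1, 670 and 501 in library 2 and 777 lower in library 3. Without cells over 30000 UMIs, 138 were lower in library 1 and 189 higher in library 2. With 2 UMIs of each gene, 295 were lower in library 3, and without Saa3-positive members 218 were higher there.

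Against monocytes, genes higher and lower, in place of 14 and 216, were 3 and 70 under a limit of 20, 31 and 409 under 100, and 66 and 720 at a ratio of 1.5. Higher were 31 by the mean over cells and 5 among cells of 10000 to 30000 UMIs. Lower were 383 without doublets, 410 with 2 UMIs of each gene and 111 on thinned cells. At a ratio of 1.5, 1495 genes were higher and 747 lower than in promyelocyte-like cells, in place of 689 and 381, 815 and 3023 than in Cd34-positive cells, in place of 328 and 1977, and 675 higher than in other kept cells, in place of 182. On thinned cells 803 were lower than in Cd34-positive cells and 661 than in other kept cells, in place of 2233. Higher than other kept cells were 117 with 2 UMIs of each gene, 416 by the mean over cells and 105 without free-RNA genes. Scaling by TMM moved the median of all genes over Cd34-positive cells to 0.00, with 608 higher and 1 list lower in place of 9.

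Counts of lists past a ratio of 1.5 moved too. Lists lower than in monocytes numbered 1 under a limit of 20, 10 under 100 and 1 at 10000 to 30000 UMIs, in place of 6. Lists higher numbered 0, 2 and 0 there, 2 by the mean over cells and 0 without free-RNA genes, in place of 1. Lists lower than in Cd34-positive cells numbered 3 under 20 and 3 at 10000 to 30000 UMIs. Against promyelocyte-like cells 1 list was lower, in place of 2, without doublets, with 2 UMIs of each gene, at 10% mitochondrial UMIs and without free-RNA genes. Against other kept cells 1 was higher under 100 and 1 without free-RNA genes, in place of 2, and 3 were lower on thinned cells and 4 at 10000 to 30000 UMIs, in place of 9. In library 1, 0 lists were higher, in place of 1, without doublets, without cells over 30000 UMIs, on thinned cells, by the mean over cells and without free-RNA genes, and 2 among members without a cycle UMI. Among those 1 was lower in library 1, 1 higher in library 2 and 1 lower in library 3, and 1 was lower in library 1 under 20.

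A list median past that ratio changed sign in 10 cases. Over other kept cells on thinned cells these were neuregulin and ERBB signalling (0.45), coagulation (0.21) and integrins (0.11), and at 10000 to 30000 UMIs coagulation (0.0496) and inflammatory genes (0.0154). MHC class II over Cd34-positive cells was 0.14 at that depth. Free-RNA genes were at 0.0705 in library 2 without doublets and 0.057 with 2 UMIs of each gene, and over promyelocyte-like cells at 0.0721 without cells over 30000 UMIs and 0.12 at 10000 to 30000. The cause was not tested in any of these. Over 14 alternatives the library 3 median of the type I interferon list ranged from 1.10 to 1.87, of the interferon-gamma list from 1.67 to 2.65 and of the inflammatory list from 0.87 to 1.57. The settings without Saa3-positive members and with cells of 10000 to 30000 UMIs were chosen after seeing the data. Depth limits genes under about 50 summed UMIs, and with 1 pooled library per group no difference could be set against the spread between mice.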
